A study of Homo sapiens with 23 samples.

Results

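The tight junction gene CLDN1 was described together with 6 genes that mark epithelial cells or the choroid plexus: TTR, TRPM3, OTX2, IGFBP7, KRT8 and KRT18. These 7 genes, of the 9497 genes listed for each library, were taken by symbol. The set was chosen by a measured value: CLDN1 had lower values in libraries labelled KO+cJun than in libraries labelled KO on both days, so that difference is a description here and carries no test. All 7 genes were listed in all 12 RNA-seq libraries.

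The libraries were made from thalamus organoids (ThOs), spheres of neural tissue steered towards the thalamus, which were grown from H1, an established human embryonic stem cell line. The 3 genotype labels are WT (unedited H1), KO (H1 with c-JUN knocked out) and KO+cJun (by its title, the knockout with c-JUN added back), each at day 25 and day 30 with 2 libraries, and each library pooled 3 ThOs. The study describes 2 knockout clones made by CRISPR-Cas9 and a doxycycline-driven tet-on cassette for c-JUN; the labels do not say which clone was used or whether doxycycline was given, and the genotype field of the KO+cJun libraries names the knockout alone. All groups passed through the same induction, with inhibitors of BMP and activin/TGF-beta signalling first and BMP7 with the MEK inhibitor PD325901 during thalamus patterning. Nothing in the labels says whether the 2 libraries of a group came from separate differentiations, so p-values measure only the spread between these libraries.

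Genotype names below are labels. JUN, the targeted gene, had values of 128 to 162 in the 4 libraries labelled WT, 196 to 353 in the 4 labelled KO and 202 to 362 in the 4 labelled KO+cJun. In these libraries JUN was thus not lower in KO than in WT, and KO and KO+cJun overlapped. By western blot the study reports c-JUN protein lost in its KO lines and restored by doxycycline. It also reports no c-JUN mRNA by RT-qPCR in KO neural progenitors and cerebral organoids. The paper gives these assays for other cultures than the libraries used here. For ThOs at day 25 it reports by ATAC-seq that chromatin at c-JUN was less accessible in KO than in WT or with c-JUN overexpressed. Those ATAC-seq samples were not used here, so every direction below rests on the label of the RNA-seq libraries. The values are normalized expression values rounded to whole numbers, with a median of 106 and a maximum of 9910 in every library; read depth is unknown. Replicates in the 2 KO groups lay far apart, with 17.4% of genes at day 25 and 21.5% at day 30 differing at least 2-fold between the libraries of the pair, against 1.75% to 4.45% in the other 4 groups. The tissue label reads embryonic stem cells. The pluripotency genes POU5F1 and NANOG were not among the genes listed, though DNMT3B of the same list was. Listed were 12 of 13 neuronal genes and 6 of 13 thalamus genes, with TCF7L2 among them but not GBX2 or OLIG3. Genes low in any library are not listed, so a gene not listed is not shown to be absent.

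The choroid plexus is the secretory epithelium that grows from the dorsal midline of the brain ventricles, makes cerebrospinal fluid and separates it from blood. Its cells are sealed by claudins, membrane proteins whose composition sets how tight the junction is, and CLDN1 is one of those found there. Transthyretin (TTR), which carries thyroid hormone and retinol-binding protein, is its best known secreted product. Keratins 8 and 18 pair into the intermediate filaments of simple epithelia. OTX2 is a homeobox factor needed for choroid plexus formation and also active in other forebrain and midbrain progenitors, so none of the 7 genes belongs to this epithelium alone.

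CLDN1 (ENSG00000163347) lies on the minus strand of GRCh38 chromosome 3 from 190305707 to 190322446, and KRT8 (ENSG00000170421) on the minus strand of chromosome 12 from 52897187 to 52949954. RefSeq promoter windows of 300 bases, reaching 250 bases before to 50 bases after an annotated start, were found for 4 of the 7 genes (CLDN1, KRT8, OTX2 and TRPM3, 6 windows in all). The 250 bases before the start are shown for CLDN1, on which the set turns, and for KRT8, whose values followed it most closely among the other 6 genes, so that both can be read beside their levels. Both are given 5′ to 3′ on the minus strand of GRCh38.p14, at chr3:190322447-190322696 for CLDN1 and chr12:52926470-52926719 for KRT8, where the start used by RefSeq falls inside the span that the tables give for the gene.
CLDN1: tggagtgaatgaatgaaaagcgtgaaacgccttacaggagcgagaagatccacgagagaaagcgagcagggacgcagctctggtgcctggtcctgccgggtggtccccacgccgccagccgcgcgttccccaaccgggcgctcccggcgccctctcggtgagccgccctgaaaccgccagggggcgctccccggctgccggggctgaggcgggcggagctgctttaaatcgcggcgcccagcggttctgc
KRT8: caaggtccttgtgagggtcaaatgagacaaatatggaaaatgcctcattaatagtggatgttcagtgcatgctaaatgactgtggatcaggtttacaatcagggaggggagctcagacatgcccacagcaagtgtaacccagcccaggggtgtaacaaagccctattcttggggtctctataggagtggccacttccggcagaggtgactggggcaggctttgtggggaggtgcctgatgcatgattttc
No letters are in capitals because neither motif searched was present. The motifs were the AP-1 site TGANTCA, the sequence bound by JUN with its partners, and the OTX-type site TAATCC, each read on both strands. Neither occurred in any of the 6 windows, while 7.71% and 6.36% of the 35116 RefSeq windows of that length held them, and 4.86% and 4.48% of the 11737 windows of genes listed in the tables. The CLDN1 window was rich in G and C (67% of its 300 bases, with 31 CG pairs) and the KRT8 window less so (50.7%, with 2 CG pairs), against a median of 58.7% over all windows.

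CLDN1 took 3 separate levels by genotype label. At day 25 its values were 172 and 155 in WT, 460 and 232 in KO, and 38 and 32 in KO+cJun. At day 30 they were 168 and 146 in WT, 372 and 438 in KO, and 82 and 22 in KO+cJun. All 4 KO libraries were above all 4 WT libraries, and all 4 KO+cJun libraries were below them, with no overlap between any pair of labels; among all genes 2.74% had the first separation and 4.34% the second. Over both days the means were 160.2 ± 11.95 (SD, n = 4) in WT, 375.5 ± 102.7 (SD, n = 4) in KO and 43.5 ± 26.5 (SD, n = 4) in KO+cJun.

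On the log2(value + 1) scale, CLDN1 differed between KO and WT by 1.00 at day 25 and 1.36 at day 30, which is 2.26-fold over both days. The difference between KO+cJun and KO was -3.19 at day 25 and -3.21 at day 30, or 9.20-fold lower over both days. The day 30 value rested on KO+cJun libraries at 82 and 22: it was -2.29 without replicate 2 and -4.14 without replicate 1. KO+cJun was also 4.06-fold lower than WT over both days. Because its KO and KO+cJun values led to the choice of the gene, none of these was tested. The order KO above WT above KO+cJun without any overlap was shared by 11 of the 9497 genes, 0.116%. Those 11 were ALCAM, ANXA6, AP5M1, CCPG1, CHPF, CLDN1, CNTN4, PRKCB, RDH10, SH3RF3 and STIM1. KO replicate 2 had the lowest median Spearman correlations to the other libraries, 0.83 at day 25 and 0.75 at day 30. KO day 25 replicate 1 was close, at 0.85. Without replicate 2 of KO at each day, the KO to WT difference of CLDN1 was 1.37 and the KO+cJun to KO difference -3.39. With any 1 library left out, the KO to WT difference ran from 0.93 to 1.42 over both days and from 0.50 to 1.49 at day 25. The day-to-day comparison did not use the rule: over all genotypes CLDN1 differed by 0.18 on the log2 scale between day 30 and day 25 (SE 0.286, 95% interval -0.45 to 0.80, limma adjusted p = 0.847). In ThOs, as in any bulk sample, fewer cells of a type and less RNA per cell cannot be told apart.

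**Figure D1:**
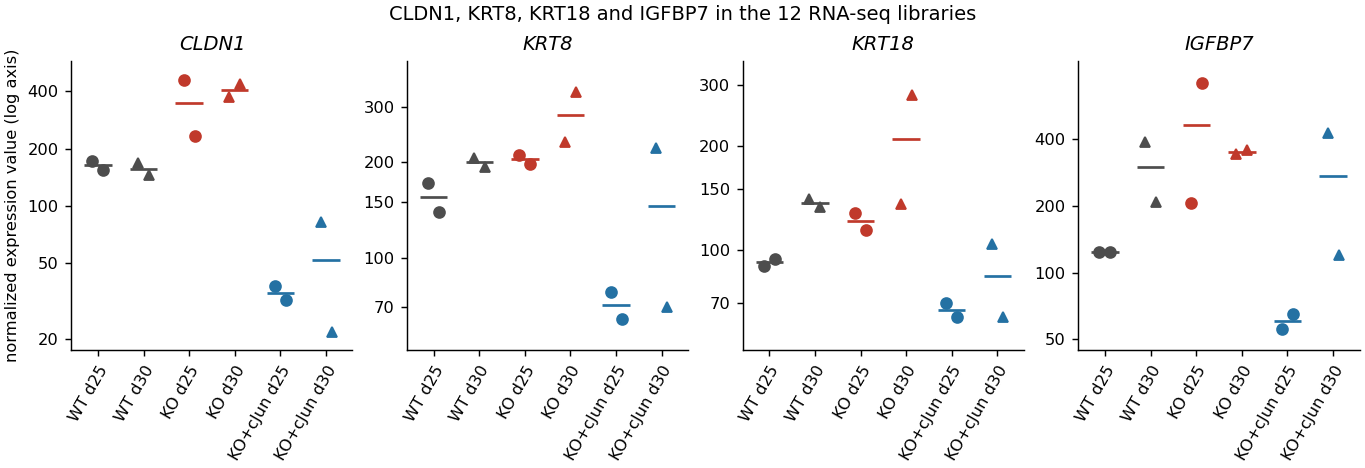
Normalized expression values (log axis, a separate range in each panel) of CLDN1, KRT8, KRT18 and IGFBP7 in the 6 groups of genotype label and day; each point is a library, circles are day 25, triangles day 30, and lines are means of 2 libraries. The 4 KO+cJun values of CLDN1, 22 to 82, lie below the 4 WT values, 146 to 172, and the 4 KO values, 232 to 460, lie above them.

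KRT8, the type II keratin of simple epithelia, had values of 172 and 139 in WT, 211 and 198 in KO, and 78 and 64 in KO+cJun at day 25. At day 30 its values were 206 and 194 in WT, 232 and 334 in KO, and 222 and 70 in KO+cJun. Within each day both KO libraries lay above both WT libraries, as for 4.74% of all genes, and above both KO+cJun libraries, as for 6.85%, but KO+cJun day 30 replicate 1, at 222, lay above both WT libraries of that day. KRT18, its type I partner on the same chromosome (52948871 to 52952906, plus strand), had values of 90 and 94 in WT, 128 and 114 in KO, and 70 and 64 in KO+cJun at day 25. At day 30 KRT18 stood at 140 and 133 in WT, 136 and 282 in KO, and 104 and 64 in KO+cJun. The 4 KO+cJun libraries were below the 4 KO libraries for KRT18, a separation held by 4.51% of all genes, and below WT within each day, held by 7.8%.

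Against KO, the KO+cJun values of KRT8 were 2.52-fold lower over both days and those of KRT18 2.07-fold lower, given without a test. Against WT, KO+cJun differed by -0.90 on the log2 scale for KRT8 (SE 0.300, 95% interval -1.56 to -0.24, limma adjusted p = 0.420) and by -0.59 for KRT18 (SE 0.245, 95% interval -1.13 to -0.06, adjusted p = 0.542), neither of which passed over all genes. KO differed from WT by 0.44 for KRT8 (95% interval -0.22 to 1.10) and 0.45 for KRT18 (95% interval -0.08 to 0.99), with limma adjusted p of 0.495 and 0.390. KRT18 at day 30 in KO rested largely on replicate 2: without it the KO to WT difference at that day went from 0.52 to -0.005. The spans of KRT8 and KRT18 overlap on opposite strands, and both genes have many processed pseudogenes, so how reads were divided among them is uncertain.

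IGFBP7 (ENSG00000163453, chromosome 4, 57030773 to 57110385, minus strand), a secreted protein that binds insulin-like growth factors and matrix, had the second widest range of the 7 genes, from 56 to 720. At day 25 it stood at 124 and 124 in WT, 206 and 720 in KO, and 56 and 65 in KO+cJun, and the 3 labels did not overlap; at that day 19.3% of all genes had both KO libraries above both WT libraries. At day 30 it stood at 388 and 209 in WT, 342 and 358 in KO, and 427 and 120 in KO+cJun, where they did overlap. The KO to WT difference was 1.63 at day 25 (SE 0.602, 95% interval 0.31 to 2.95, limma adjusted p = 0.284) and 0.30 at day 30 (SE 0.602, adjusted p = 0.882). Without KO day 25 replicate 2, the library at 720, the day 25 difference was 0.73. KO+cJun was 6.30-fold lower than KO at day 25 and 1.54-fold lower at day 30, as a description. These rested on single libraries: the log2 difference of -2.65 at day 25 was -1.75 without KO replicate 2 and -3.56 without KO replicate 1, and that of -0.62 at day 30 was 0.29 without KO+cJun replicate 2 and -1.54 without KO+cJun replicate 1. The change in the KO effect between the days did not pass the test for any of the 6 genes tested, nor for any gene of the table (limma; 0 at an unadjusted p under 0.05 among the 6, 5.63% of all genes).

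TTR, TRPM3 and OTX2 did not follow CLDN1. TTR (ENSG00000118271, chromosome 18, 31557009 to 31598833, plus strand) was among the highest values of the tables and varied widely between replicates. Its values were 922 and 1878 in WT, 541 and 3453 in KO, and 3452 and 1081 in KO+cJun at day 25. At day 30 they were 3452 and 1739 in WT, 2672 and 638 in KO, and 2672 and 3452 in KO+cJun. Replicates of 1 group differed by up to 6.38-fold, as far as the whole range of the gene, and the labels overlapped on both days. The value 3452 recurred because high genes sit on a few shared steps of the normalized scale, with 9 or 10 genes within 5 units of 3453 in every library. KO differed from WT by -0.43 over both days (SE 0.607, 95% interval -1.76 to 0.91, limma adjusted p = 0.754), an interval wide enough to hold a more than 2-fold decrease.

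TRPM3 (ENSG00000083067, chromosome 9, 70529060 to 71446904, minus strand) is a calcium-permeable cation channel whose gene is expressed in choroid plexus and neurons. Its mean was higher at day 25 than at day 30 under each label. Its values at day 25 were 3456 and 1332 in WT, 1740 and 3456 in KO, and 2094 and 790 in KO+cJun. At day 30 they were 1216 and 823 in WT, 767 and 1259 in KO, and 1014 and 651 in KO+cJun. In WT and KO both day 30 libraries were below both day 25 libraries, in WT by little (1216 against 1332). In KO+cJun 1014 lay between the day 25 values. The share of all genes with such a separation by day was not computed. Day 30 differed from day 25 by -1.03 over genotypes (SE 0.307, 95% interval -1.70 to -0.35, unadjusted p = 0.00637, limma adjusted p = 0.283), which did not pass. KO and WT differed by 0.08 over both days (95% interval -0.74 to 0.91).

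OTX2 (ENSG00000165588, chromosome 14, 56799905 to 56816693, minus strand) was the steadiest of the 7, from 450 to 732 over the 12 libraries, a 1.63-fold range against a median of 2.48-fold over all genes. It stood at 708 and 606 in WT, 450 and 523 in KO, and 674 and 598 in KO+cJun at day 25, and at 732 and 598 in WT, 720 and 586 in KO, and 509 and 558 in KO+cJun at day 30. The 2 KO libraries were the lowest at day 25, where 21.3% of all genes had both KO below both WT libraries. The 2 KO+cJun libraries were the lowest at day 30, where 18.5% of all genes had both KO+cJun below both KO libraries. At day 25 KO differed from WT by -0.43 (SE 0.186, 95% interval -0.84 to -0.02, limma adjusted p = 0.343), and at day 30 by -0.03 (SE 0.186, 95% interval -0.44 to 0.38, adjusted p = 0.974).

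**Figure D2:**
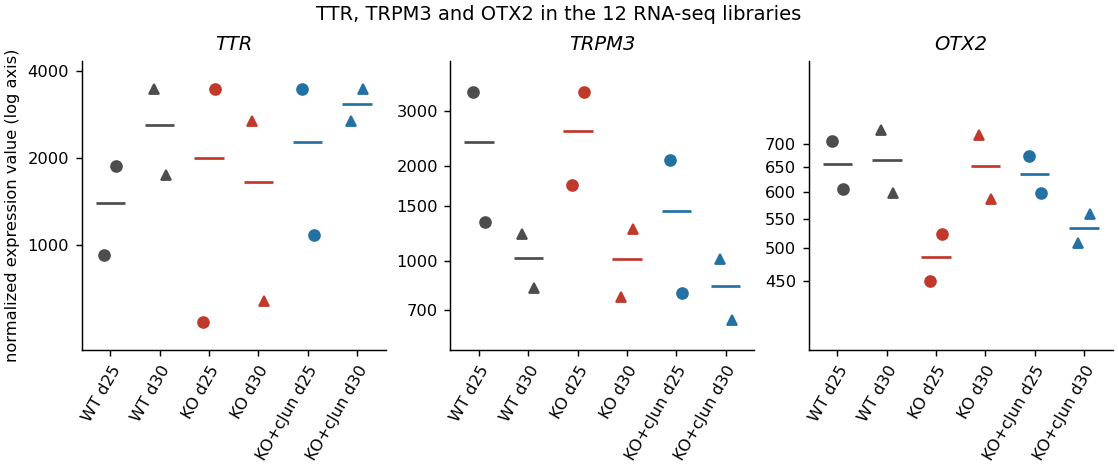
Normalized expression values (log axis, a separate range in each panel) of TTR, TRPM3 and OTX2 in the 6 groups; each point is a library, circles are day 25, triangles day 30, and lines are means of 2 libraries. TTR replicates differ by up to 6.38-fold, the TRPM3 triangles lie low, and OTX2 stays between 450 and 732.

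None of the genes tested passed in any comparison that was tested (limma, adjusted p under 0.05 and at least 2-fold). All but the comparison within WT share KO or KO+cJun libraries with the contrast that chose CLDN1. With the days averaged, 0 of 6 genes were called for KO against WT, against 0.0211% of all genes, and 1 of 6 (IGFBP7, log2 difference 0.96, adjusted p = 0.319) had an unadjusted p under 0.05, against 15.2% of all genes. At day 25 alone 0 of 6 were called for that comparison, against 0.0105%, and 2 (OTX2 and IGFBP7) had an unadjusted p under 0.05, against 13.4%. At day 30 alone 0 of 6 and 0 of all genes were called, and 0 of 6 had an unadjusted p under 0.05, against 7.36%. For KO+cJun against WT, with the days averaged, 0 of 6 were called, against 0.158%, and 2 of 6 (KRT8 and KRT18) had an unadjusted p under 0.05, against 8.21%. For day 30 against day 25, 0 of 7 were called and 0 of all genes, while 4 of 7 had an unadjusted p under 0.05, against 11.3%. Those 4 were TRPM3, lower at day 30, and IGFBP7, KRT8 and KRT18, with differences of 0.98, 0.54 and 0.51 and limma adjusted p of 0.348, 0.439 and 0.388. In WT alone, 0 of 7 passed between the days and 0 had an unadjusted p under 0.05, against 4.3% of all genes. With 2 libraries a group, these intervals are too wide to show that KO and WT were alike.

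**Figure D3:**
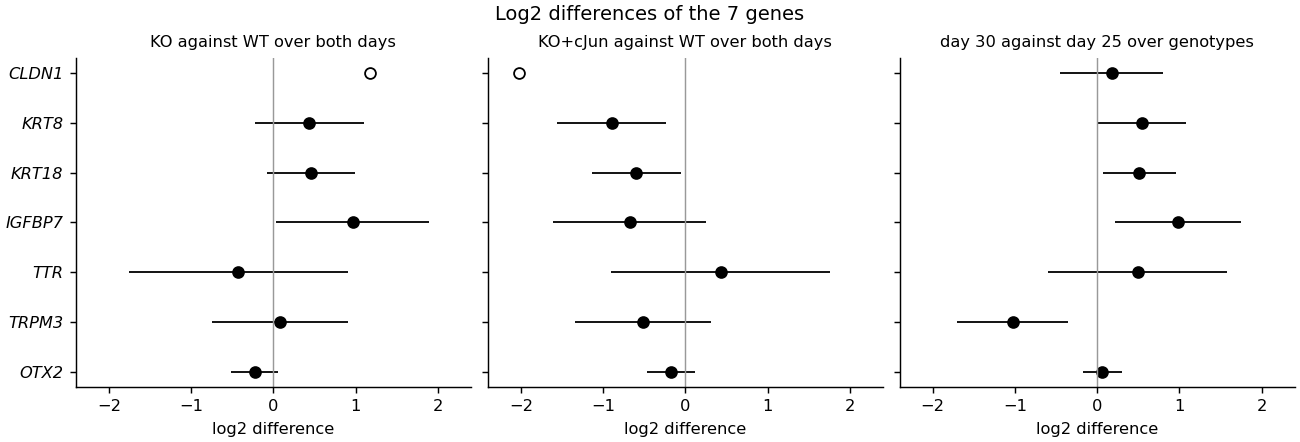
Differences in log2(value + 1) of the 7 genes for KO against WT and KO+cJun against WT, each over both days, and for day 30 against day 25 over genotypes; filled points carry 95% intervals from limma, and open points (CLDN1 against WT) were not tested because its KO and KO+cJun values led to its choice. The intervals of KRT8 and KRT18 lie below 0 in KO+cJun against WT and that of TRPM3 below 0 at day 30, but none passed after adjustment over 9497 genes.

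The comparison of KO+cJun with KO split the 7 genes into 4 and 3. CLDN1, chosen for its fall, had a log2 difference of -3.20 over both days. Among the other 6 genes, IGFBP7, KRT8 and KRT18 were at least 2-fold lower in KO+cJun, where 2.67% of all genes were. Their log2 differences were -1.64, -1.34 and -1.05. TTR, TRPM3 and OTX2 differed by 0.86, -0.60 and 0.05. Without KO+cJun day 30 replicate 2 only CLDN1 and IGFBP7 were at least 2-fold lower, with KRT8 at -0.92 and KRT18 at -0.88. Replicate 1 of that group stood at 222 for KRT8 and 104 for KRT18, against 70 and 64 in replicate 2. These values share the libraries by which CLDN1 was chosen.

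How the genes varied together was described by correlation over libraries, to which the KO and KO+cJun levels used by the rule contribute. Over the 12 libraries, which share 6 groups and 1 normalization, Pearson r on the log2 scale was 0.89 between CLDN1 and KRT8, 0.83 between CLDN1 and KRT18, 0.90 between KRT8 and KRT18 and 0.64 between CLDN1 and IGFBP7. With group means removed, so that only differences between replicates were left, these were 0.89, 0.63, 0.76 and 0.30. Each of these rests on 6 pairs of replicates, 1 for each group. The widest pair for both CLDN1 and KRT8 was KO+cJun day 30, at 3.73-fold and 3.17-fold, and r without it was not computed. With group means removed the split into 4 and 3 was not seen. IGFBP7 had r = 0.31 with KRT18, 0.48 with TRPM3 and 0.41 with TTR. TRPM3 had 0.50 with KRT8, and TTR had 0.70 with OTX2. CLDN1 had r = -0.44 with TTR, 0.31 with TRPM3 and -0.07 with OTX2 over the libraries, and -0.39, 0.20 and -0.33 with group means removed.

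The 5 genes most like CLDN1 over the 12 libraries were RDH10 (r = 0.96), MATN2 (0.95), CHPF (0.94), PRKCB (0.94) and GDPD2 (0.94). RDH10 encodes the retinol dehydrogenase that makes retinaldehyde in the embryo. Its values were 132, 100, 144 and 76 in WT, 257, 152, 298 and 488 in KO, and 45, 31, 52 and 24 in KO+cJun. CHPF, which helps to build chondroitin sulfate chains, ran from 66 to 160 in KO+cJun, 196 to 251 in WT and 336 to 592 in KO. MATN2 is a matrix protein, PRKCB a protein kinase C and GDPD2 a glycerophosphodiester phosphodiesterase. The 5 most opposite genes were PTBP2 (r = -0.92), TRA2A (-0.91), KPNA2 (-0.90), DLGAP5 (-0.90) and SKIDA1 (-0.90). PTBP2 and TRA2A encode splicing factors, KPNA2 a nuclear import receptor and DLGAP5 a mitotic spindle protein. DLGAP5 had values of 156 to 167 in KO+cJun, 96 to 123 in WT and 76 to 109 in KO.

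**Figure D4:**
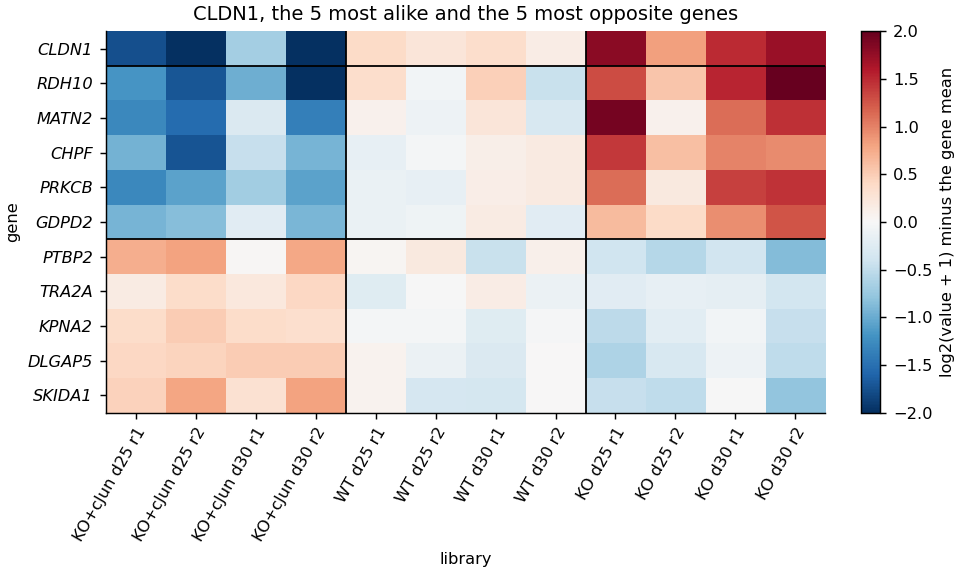
Log2(value + 1) minus the mean of each gene for CLDN1, the 5 genes of highest and the 5 of lowest Pearson r with it, in the 12 libraries ordered by genotype label (d, day; r, replicate; colours saturate at -2 and 2). The first 6 rows run from low in KO+cJun to high in KO and the last 5 run the other way; the genes were selected for this pattern.

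Each of the other 6 genes had its own nearest genes. IGFBP7 was most like ENPP2 (r = 0.97), the lysophospholipase autotaxin that the choroid plexus secretes, then PRNP (0.96) and SLC20A2 (0.95). KRT8 was most like SNX17 (0.93), ABLIM1 (0.93) and PCSK6 (0.92), and RNF180 (0.94) and PCSK6 (0.92) were among the genes nearest to KRT18, so PCSK6 was near both keratins. TTR had TTLL12, STAG1 and BAD (0.90 each), TRPM3 had NPEPPS, GATD1 (0.92 each) and ARHGEF17 (0.90), and OTX2 had ERO1A (0.88), BRD1 (0.84) and CHMP4B (0.83). None of the 7 was among the nearest genes of another, and with 12 libraries and 9497 genes values of this size are a description only.

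A list of 38 choroid plexus genes placed the 7 against the rest of that epithelium. Of these, 26 were listed, among them 19 besides the 7, including CLIC6, FOLR1, KCNJ13, SLC4A5, HTR2C and CA2; AQP1, KL, KCNE2 and CLDN2 were among the 12 not listed. The mean log2 value of the 19 ran from 7.02 to 7.66 in WT, 7.17 to 8.27 in KO and 6.67 to 7.74 in KO+cJun, and their summed value from 3113 to 4305, 3424 to 6693 and 2508 to 4433. KO day 25 replicate 2 held the highest value of 10 of the 19 genes, and KO+cJun day 25 replicate 2 the lowest value of 10. In that KO library FOLR1, the folate receptor that moves folate into cerebrospinal fluid, stood at 346 against 40 in its replicate. CLIC6, an apical chloride channel protein, stood at 364 against 50, and CA2, a carbonic anhydrase of fluid secretion, at 546 against 89.

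Not all of the 7 genes moved with that list. Pearson r with the mean of the 19 over 12 libraries was 0.82 for IGFBP7, 0.53 for TTR, 0.44 for KRT8, 0.30 for TRPM3, 0.29 for KRT18, 0.25 for CLDN1 and -0.24 for OTX2. In KO day 25 replicate 2, where the 19 were highest, CLDN1 was at its lowest KO value, 232. The KO libraries with CLDN1 at 460, 372 and 438 had list means of 7.17, 7.31 and 7.33, inside the WT range. The part of cell composition in the CLDN1 values was not tested. For the 19 genes, 0 were called in KO against WT with the days averaged, against 0.0211% of all genes. An unadjusted p under 0.05 was held by 4, all higher, against 15.2% of all genes. The median log2 difference of the 19 was 0.28 against -0.02 over all genes. The largest differences, none called, were those of ATP1B1, a subunit of the sodium pump (1.15, SE 0.227, limma adjusted p = 0.130), and ENPP2 (1.09, SE 0.478, adjusted p = 0.316). Others of the 19 were lower in KO, SLC5A3 the most (-0.79, SE 0.398, limma adjusted p = 0.362). HTR2C differed by -0.55 and CLIC6 by -0.53. In KO+cJun against WT, 0 of the 19 were called, against 0.158% of all genes. There 4 had an unadjusted p under 0.05, 2 in each direction, against 8.21%, and the median of the 19 was -0.10.

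**Figure D5:**
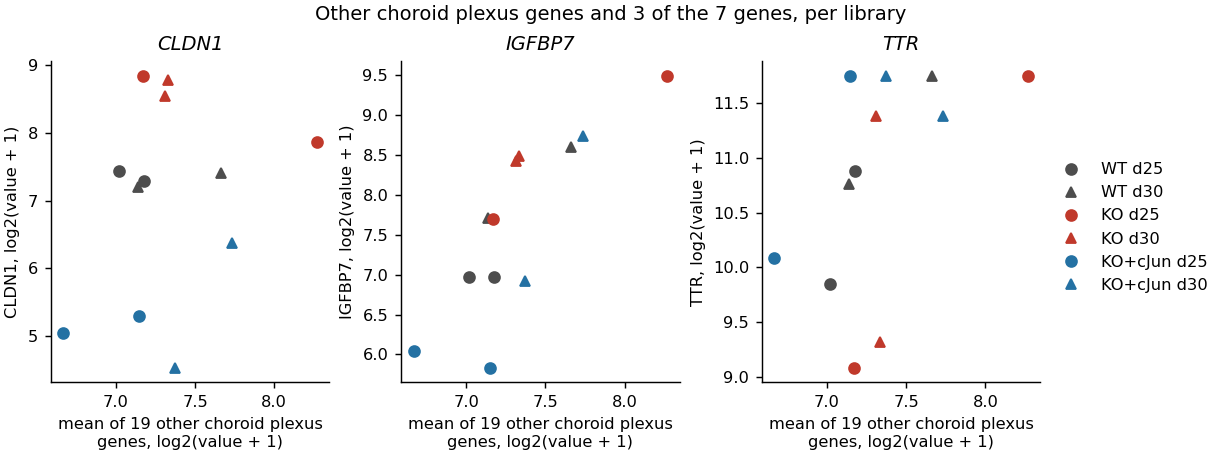
Log2(value + 1) of CLDN1, IGFBP7 and TTR (vertical axes, separate ranges) against the mean log2(value + 1) of 19 other choroid plexus genes (horizontal axes) in the 12 libraries; colours are genotype labels, circles day 25, triangles day 30. IGFBP7 follows the 19 genes (r = 0.82), whereas CLDN1 is layered by label at similar horizontal positions (r = 0.25).

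Other claudins were compared with CLDN1. Of 42 tight junction genes 27 were listed, and the claudin family members among them were CLDN1, CLDN5, CLDN12, CLDN19 and CLDND1. CLDN5, the claudin best known from brain endothelium, stood at 70, 64, 98 and 76 in WT, 124, 190, 68 and 51 in KO and 196, 108, 174 and 238 in KO+cJun, so that all 4 KO+cJun libraries were above all 4 WT libraries, as for 4.13% of all genes. Its difference between KO+cJun and WT was 1.17 (SE 0.245, limma adjusted p = 0.118), which did not pass, where that of CLDN1 was -2.02. Other endothelial genes, 10 of a list of 11 with PECAM1 and CDH5 among them, were not listed. CLDN19 stood at 163, 88, 112 and 100 in WT, 68, 92, 62 and 136 in KO and 84, 24, 60 and 70 in KO+cJun. Its 4 KO+cJun libraries were below all 4 WT libraries, as for CLDN1 and 4.34% of all genes, but its KO libraries overlapped both other labels, and its difference was -1.04 (SE 0.384, limma adjusted p = 0.486). CLDN12 had a difference of 0.28 and CLDND1 of 0.20.

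Of the 26 junction genes besides CLDN1, 1 was called for KO+cJun against WT, against 0.158% of all genes. For KO against WT 0 were called, against 0.0211%, and 2 had an unadjusted p under 0.05, 1 in each direction, against 15.2%. OCLN, the junction protein occludin, picked out after its values were seen, ran from 50 to 55 in KO+cJun, 74 to 104 in WT and 64 to 96 in KO. Its 4 KO+cJun libraries lay below the 4 WT libraries, as for 4.34% of all genes, and below the 4 KO libraries, as for 4.51%. The OCLN difference between KO+cJun and WT of -0.69 (SE 0.186, limma adjusted p = 0.242) did not pass. The one called was PATJ, a scaffold of the Crumbs polarity complex at the junction, at 123, 78, 90 and 81 in KO+cJun against 298, 226, 278 and 236 in WT. It fell by 1.49 on the log2 scale (SE 0.247, limma adjusted p = 0.0467), and the adjusted p rose above 0.05, to between 0.07485 and 0.327, whenever 1 of the 8 libraries compared was left out. The median differences of the 26 were -0.13 for KO and -0.05 for KO+cJun, against -0.02 and 0.001 over all genes.

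Other keratins and epithelial genes were set beside KRT8 and KRT18. Of 29 genes of simple epithelia, 11 were listed, and EPCAM, CDH1, KRT7 and KRT19 were not. Of the 9 besides KRT8 and KRT18, 0 were called in either genotype comparison with WT; for KO 3 had an unadjusted p under 0.05 (2 higher, 1 lower), against 15.2% of all genes, and for KO+cJun 1, lower, against 8.21%. ANXA1 had a KO to WT difference of 0.88 (SE 0.578) and the desmosomal cadherin DSG2 one of -0.82 (SE 0.210, limma adjusted p = 0.180). The median of the 9 was -0.12 in KO and -0.33 in KO+cJun against WT.

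Families of the other genes were counted in the same way for KO against WT, where 0.0211% of all genes were called and 15.2% had an unadjusted p under 0.05. With so few calls over all genes, 0 called says little about a list. In the insulin-like growth factor list, 13 of the genes besides IGFBP7 were listed and 0 were called for KO against WT, with 4 at an unadjusted p under 0.05, all lower. IGF1R, the receptor, differed by -0.72 (SE 0.186, limma adjusted p = 0.180) and the RNA-binding IGF2BP1 by -1.01 (SE 0.297, adjusted p = 0.197), opposite in sign to IGFBP7. Of the 8 listed retinoid and thyroid hormone carriers and receptors besides TTR, 0 were called and 3 had an unadjusted p under 0.05. Among 5 TRP channel genes besides TRPM3, 0 were called and 0 had an unadjusted p under 0.05 for KO against WT, with TRPM7 at 0.08 (SE 0.236). Of 7 listed forebrain and midbrain factors besides OTX2, 0 were called and 2 had an unadjusted p under 0.05: LMX1B at 1.81 (SE 0.401, adjusted p = 0.155) and LMX1A, a roof plate factor also found in choroid plexus, at 0.75 (SE 0.251, adjusted p = 0.225).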

How the data were processed

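RNA-seq was done on 12 libraries of H1-derived ThOs, 6 groups of 2. The 9 ATAC-seq and 2 CUT&Tag samples were not used here. For each library the authors deposited a table of gene identifiers, symbols, positions and a normalized expression score rounded to whole numbers. The submitters' processing notes name bcl2fastq, RSEM, Bowtie2 and hg19 without roles; the counting and normalization are not given in the sources used here. The listed positions of all 7 genes overlap those of RefSeq GRCh38.p14, and that build is used here. All tables share a minimum of 11, a median of 106 and a maximum of 9910, which quantile normalization would leave, so genes low in any library are not listed and the median gene cannot shift. Depth is unknown, and no counting interval was computed. No pair of tables was identical.

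The log2(value + 1) data were fitted in limma 3.58.1 (R 4.3.3) with a mean for each of 6 groups (6 residual and 5.29 prior degrees of freedom, intensity trend), and adjusted by Benjamini-Hochberg over 9497 genes. Calls needed an adjusted p under 0.05 and at least 2-fold; the change of the KO effect between days needed the adjusted p alone. Tests are two-sided, and fold changes on this scale slightly understate changes of low genes. Steps were tested on simulated data. The 7 genes, the gene lists and the tests were chosen with earlier results of these data known. Named genes are the 7, JUN, the 5 most and 5 least correlated with CLDN1, the 3 most correlated with each other gene, and from each list those called or else up to 4 with the largest KO to WT difference; listed claudins, OCLN, FOLR1, CLIC6, CA2, HES1, PTPRZ1 and NOTCH1 were added after their values were seen. Some genes that the rule names are not reported here. Alternatives were pseudocounts of 0.1 and 5, quantile normalization, a floor of 50 on the mean value, median centring, a replicate block, only the libraries compared, library weights, no trend, and each library left out. Leaving out both KO libraries numbered replicate 2 was added after seeing the data.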

Additional observations from a re-analysis of the deposited data

Results flagged for a closer look

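OTX2 differed in opposite directions on the 2 days when KO+cJun was set against KO. Both KO+cJun libraries were above both KO libraries at day 25 (674 and 598 against 450 and 523), a log2 difference of 0.39. Of all genes 24.5% had that separation. Both were below the KO libraries at day 30 (509 and 558 against 720 and 586), a difference of -0.29, as for 18.5% of all genes. Between the group means of day 30 and day 25, which come from separate ThOs, the difference was 0.42 in KO and -0.25 in KO+cJun. The difference between the days was not tested for this pair of labels, whose contrast led to the choice of the genes. No single library was tested as an outlier, since each group of genotype and day holds 2.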

How the results depend on the processing

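No gene tested was called under any alternative that kept all libraries compared: the 7 counts of called genes stayed at 0 in all 63 such refits. CLDN1 entered only the counts of day 30 against day 25, over genotypes and in WT, and could not be called in the others. Replicate numbers did not pair the libraries (correlations of deviations from group means from -0.21 to 0.26, 1 of 15 above 0.1). With the replicate block the count for KO against WT over both days was 0, and calls among all genes went from 15 to 5 for KO+cJun against WT and from 211 to 139 for KO+cJun against KO, both over both days. The count of genes at least 2-fold lower in KO+cJun than in KO was 4, one of them CLDN1, which was chosen for its fall. That count ran from 2 (without KO+cJun day 30 replicate 2) to 4 with a library left out. Of the differences of single genes, 14 changed sign with libraries left out, none of them called and 4 of them between KO+cJun and KO, where none was tested. For KO against WT over both days, TTR ran from -1.09 to 0.24 and TRPM3 from -0.34 to 0.43. At day 25 TTR ran from -1.28 to 1.39 and TRPM3 from -0.50 to 0.88. At day 30 TTR ran from -1.94 to 0.13, TRPM3 from -0.38 to 0.33, OTX2 from -0.18 to 0.12, IGFBP7 from -0.15 to 0.74 and KRT18 from -0.005 to 1.04. CLDN1 between the days ran from -0.13 to 0.49. For KO+cJun against KO, TTR ran from -0.84 to 1.83 at day 25, IGFBP7 from -1.54 to 0.29 and TRPM3 from -0.63 to 0.08 at day 30, and OTX2 from -0.02 to 0.13 over both days. In each the library left out leaves 1 in its group. Among the tests made, which for CLDN1 were only those between the days, the refit with the lowest adjusted p was of KRT18. That was KO against WT over both days without KO day 30 replicate 1, at a difference of 0.72, short of 2-fold. Calls among all genes depended on the libraries: for KO against WT over both days they ran from 0 to 538 with libraries left out, against 2, and for KO+cJun against WT were 91 with library weights, against 15.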

Other observations

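Lists of other tissues were compared between KO and WT, where 0.0211% of all genes were called and 15.2% had an unadjusted p under 0.05 with the days averaged. In the cortical hem and roof plate list, from whose midline tissue the choroid plexus grows, 18 of 22 genes were listed and 0 were called for KO against WT, with 12 at an unadjusted p under 0.05 (8 higher, 4 lower). MSX1, a midline homeobox factor, had values of 484, 732, 310 and 528 in KO and 169, 132, 200 and 112 in WT (log2 difference 1.71, SE 0.340, limma adjusted p = 0.130). RSPO2, a secreted enhancer of Wnt signalling, stood at 26, 28, 112 and 54 in KO and 436, 580, 328 and 455 in WT (log2 difference -3.23, SE 0.477, limma adjusted p = 0.0642). Of 5 listed retinal pigment epithelium genes 0 were called for KO against WT and 2 had an unadjusted p under 0.05, RPE65 (difference 1.51) and RDH10 (1.32).

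In the mesenchyme list (6 listed) 0 genes were called for KO against WT and 2 had an unadjusted p under 0.05, 1 in each direction. In the radial glia list (10 listed) 0 genes were called for KO against WT and 4 (HES1, PTPRZ1, TNC and NOTCH1) had an unadjusted p under 0.05, all lower. TNC was called for KO+cJun against WT (difference -2.31, limma adjusted p = 0.0467), with a difference of -1.96 for KO against WT (adjusted p = 0.130), and each of the 8 refits without 1 of the libraries compared brought that p above 0.05. In the thalamus list (6 listed) SEMA6A was called for KO against WT at day 25 (difference -1.47, limma adjusted p = 0.0300), and that p was 0.536 without WT day 25 replicate 1 and 0.113 without WT day 25 replicate 2, in a range of 0.00719 to 0.536 over its alternatives. The call was also lost with the replicate block (0.0808), library weights (0.129), no trend (0.170) and only the libraries compared (0.526). At day 30 its difference was -0.09 (limma adjusted p = 0.870). The neuron list (12 listed), the AP-1 list (7 listed) and the single listed genes of the endothelium and pluripotency lists held 0 called genes, and 3, 2, 0 and 0 of them had an unadjusted p under 0.05 for KO against WT.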
